A study of Mus musculus with 6 samples.

Results

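The 49 genes described here encode the kinases, cyclins, checkpoint proteins, kinetochore components, motors and spindle proteins that carry a cell through mitosis, with 2 transcription factors that drive them. They were chosen by name, with earlier results of these data known. A row of the count table was a member when the gene symbol paired with its Ensembl identifier equalled a name on the list. Each of the 49 names matched 1 of the 45792 rows, and all 49 passed the filter on low counts, with between 80 and 36861 reads counted per gene and heart. The counts came from whole hearts of mouse embryos at embryonic day 13.5, 3 labelled WT (genotype wild-type) and 3 labelled KO (genotype Tie2Cre INO80 flox/flox), all 6 labelled as C57BL/6. The study's methods give mixed backgrounds for its transgenic mice, and the study counted as controls any genotype but the homozygous deletion, so the alleles of each WT heart are known here from the label alone. The Tie2Cre transgene, driven by the Tek promoter, was meant to remove a floxed exon of Ino80, the ATPase of a chromatin remodeller, from endothelial and endocardial cells and not from cardiomyocytes, and such transgenes are known to act in blood cell lineages too. In whole hearts, a change in the number of dividing cells and a change in RNA per dividing cell cannot be told apart, in either direction. The study used these hearts to ask which genes change when endothelial cells lose Ino80. From them it reported gene sets of E2F targets and of the G2/M checkpoint as enriched in the mutant.

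Entry into mitosis is driven by Cdk1 bound to cyclin B, with Plk1 and the Aurora kinases acting on centrosomes, spindle and centromeres. The spindle assembly checkpoint holds the anaphase-promoting complex in check until every kinetochore is attached, after which securin and cyclin B are degraded, separase cuts cohesin and the cell divides. Most of these genes are transcribed late in the cell cycle. Their promoters are known for a short element, the cell cycle genes homology region (CHR), which recruits the MuvB complex with pocket proteins in resting cells and with B-Myb and FoxM1 in dividing cells, and for CCAAT boxes bound by NF-Y. In the embryonic heart, mitotic transcripts come from dividing cardiomyocytes, endothelial and endocardial cells, epicardium, mesenchyme and circulating red cell precursors together.

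RefSeq promoter windows of 250 bases before to 50 bases after the transcription start (GRCm38.p6) were on hand for 41 of the 49 genes. The CHR was searched as the letters TTTGAA, its common form, or the variant TTTAAA, or else the variant TTCGAA. Any of these stood in 36 of the 41, or 87.8%, against 31.9% of the 27025 genes with such a window. CHR letters lay between 100 bases before and 50 bases after the start in 33 genes, or 80.5%, against 15.3% of all genes. CCAAT stood in 30 of the 41, or 73.2%, against 41.1%, and all 30 also held a CHR match. For E2F the letters TTCCCGC were searched, as well as the string TTGGCGC, together with the string TTCGCGC, and lastly the string TTGCCGC. They were found in 6 members, or 14.6%, against 10.9% of all genes. Both strands were searched, and the TTGG of TTGGCGC can overlap a reversed CCAAT box. In 50 genes of S phase, of which 39 had a window, E2F letters stood in 24 (61.5%) and CHR letters in 12 (30.8%). In 92 other genes of mitosis, of which 78 had a window, the shares lay between those of the 49 genes and of the S phase genes for both, with CHR letters in 38 (48.7%) and E2F letters in 24 (30.8%), and CCAAT stood in 61.5%. A match is a string of letters and not a shown binding site.

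The 120 bases before the start are printed for 8 members to let the elements be seen beside the values that follow: 3 that were higher in every KO heart (Plk1, Espl1 and Aurka), 3 that differed little (Cdk1, Cdc20 and Ccnb2) and the 2 with the lowest fold changes (Spc25 and Anln). These 8 were picked after their values were seen. Capitals mark CHR, CCAAT and E2F letters on either strand, so that ATTGG is a CCAAT box read on the other strand.
Plk1, chr7:122159315-122159434, plus strand: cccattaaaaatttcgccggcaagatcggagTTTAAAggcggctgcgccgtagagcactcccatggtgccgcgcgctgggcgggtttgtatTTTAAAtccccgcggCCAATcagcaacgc
Espl1, chr15:102296173-102296292, plus strand: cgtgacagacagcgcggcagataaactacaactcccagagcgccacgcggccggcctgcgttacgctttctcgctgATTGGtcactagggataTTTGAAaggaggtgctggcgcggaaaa
Aurka, chr2:172370571-172370690, minus strand: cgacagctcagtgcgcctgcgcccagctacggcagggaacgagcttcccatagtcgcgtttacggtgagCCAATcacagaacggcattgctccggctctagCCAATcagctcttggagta
Cdk1, chr10:69352913-69353032, minus strand: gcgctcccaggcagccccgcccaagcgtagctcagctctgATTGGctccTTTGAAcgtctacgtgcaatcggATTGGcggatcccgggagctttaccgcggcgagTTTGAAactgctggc
Cdc20, chr4:118437344-118437463, minus strand: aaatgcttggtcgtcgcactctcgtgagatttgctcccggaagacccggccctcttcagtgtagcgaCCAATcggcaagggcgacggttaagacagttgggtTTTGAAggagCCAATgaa
Ccnb2, chr9:70421555-70421674, minus strand: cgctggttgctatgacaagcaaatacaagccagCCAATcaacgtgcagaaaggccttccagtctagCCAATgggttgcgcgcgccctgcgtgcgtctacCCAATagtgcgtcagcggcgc
Spc25, chr2:69206214-69206333, minus strand: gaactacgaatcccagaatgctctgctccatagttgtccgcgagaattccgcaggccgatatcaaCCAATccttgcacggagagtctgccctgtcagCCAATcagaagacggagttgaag
Anln, chr9:22389207-22389326, minus strand: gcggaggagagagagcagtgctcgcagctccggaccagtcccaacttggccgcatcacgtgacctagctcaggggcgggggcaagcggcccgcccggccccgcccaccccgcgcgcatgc
Plk1 and Cdk1 each carry 2 CHR matches in this stretch. Ccnb2 carries 3 CCAAT boxes there, and its nearest CHR match begins at base 5 after the start. Spc25 holds 2 CCAAT boxes and Anln none. In Aurka, Spc25 and Anln the CHR letters likewise lie past the start. Starts here are those of RefSeq. By the gene positions of GENCODE vM21, the last 27 bases shown for Espl1, 26 for Cdk1 and 9 for Cdc20 lie inside the gene. The CHR match shown for Espl1 and the one nearest the start in Cdk1 fall in those bases.

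**Figure D1:**
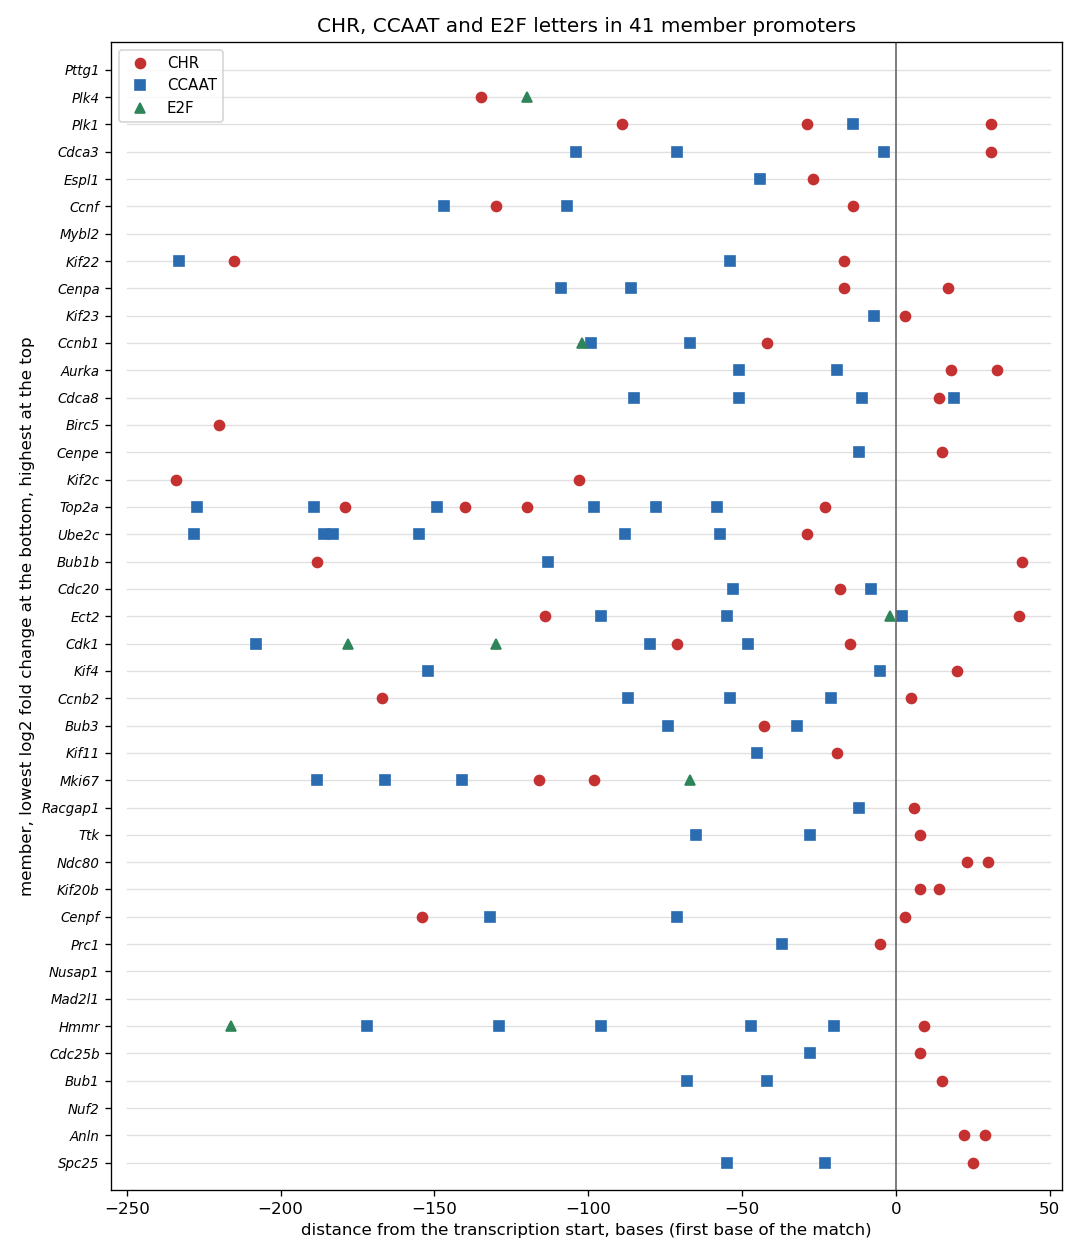
Positions of CHR (circles), CCAAT (squares) and E2F (triangles) letters in the RefSeq promoter windows of 41 mitotic genes, by distance in bases from the transcription start (the first window of a gene where RefSeq gives several). Genes are ordered by log2 fold change, lowest at the bottom. CHR letters appear in 36 of the 41 rows, in 11 of the 12 genes with an unadjusted p under 0.05 and in 25 of the 29 others. Those 29 include the 8 with a negative fold change, of which 5 hold CHR letters.

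The 6 libraries held between 28948836 and 89675692 counts, with the deepest, KO replicate 1, at 3.10 times the shallowest, KO replicate 3. Levels are given as counts per 1e6 reads after TMM scaling (CPM), and fold changes are KO over WT. Ino80 itself was at 31.5 ± 1.26 CPM (SD, n = 3) in WT and 34.0 ± 2.35 CPM (SD, n = 3) in KO hearts, so a count over the whole gene did not separate the groups, which are named here by their labels. Erythroid RNA differed widely between hearts, and the values are given below beside the results.

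Of the 49 mitotic genes, 40 had a log2 fold change above 0 and 9 below, with a median of 0.10, while 49.7% of the 17125 tested genes lay above 0 and their median was -0.0017. No member passed an adjusted p of 0.05 with edgeR's quasi-likelihood test, and neither did any other gene (background 0 of 17125). With DESeq2, the program the study used, 3 members rose, Plk1, Cdca3 and Incenp, and 0 fell, where 2.73% of all genes with an adjusted p were called higher and 3.5% lower. With edgeR at an unadjusted p under 0.05, 15 members were higher, or 30.6% of the list against 9.48% of all tested genes, and 0 were lower, against 9.98%. That count was 7 without KO replicate 2 (6.76% of all tested genes), 10 without WT replicate 3 (8.44%), 10 without KO replicate 3 (7.73%) and 19 without KO replicate 1 (6.93%). The 3 KO hearts lay above the 3 WT hearts for 17 members (34.7%, against 14.3% of all tested genes) and below them for 1, Anln (12.8% of all tested genes). For some of the 17, among them Bub1b, Ccnb1 and Ccnf, the gap between the groups was very narrow. The differences were small: the log2 fold changes ran from -0.12 for Spc25 to 0.44 for Pttg1.

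**Figure D2:**
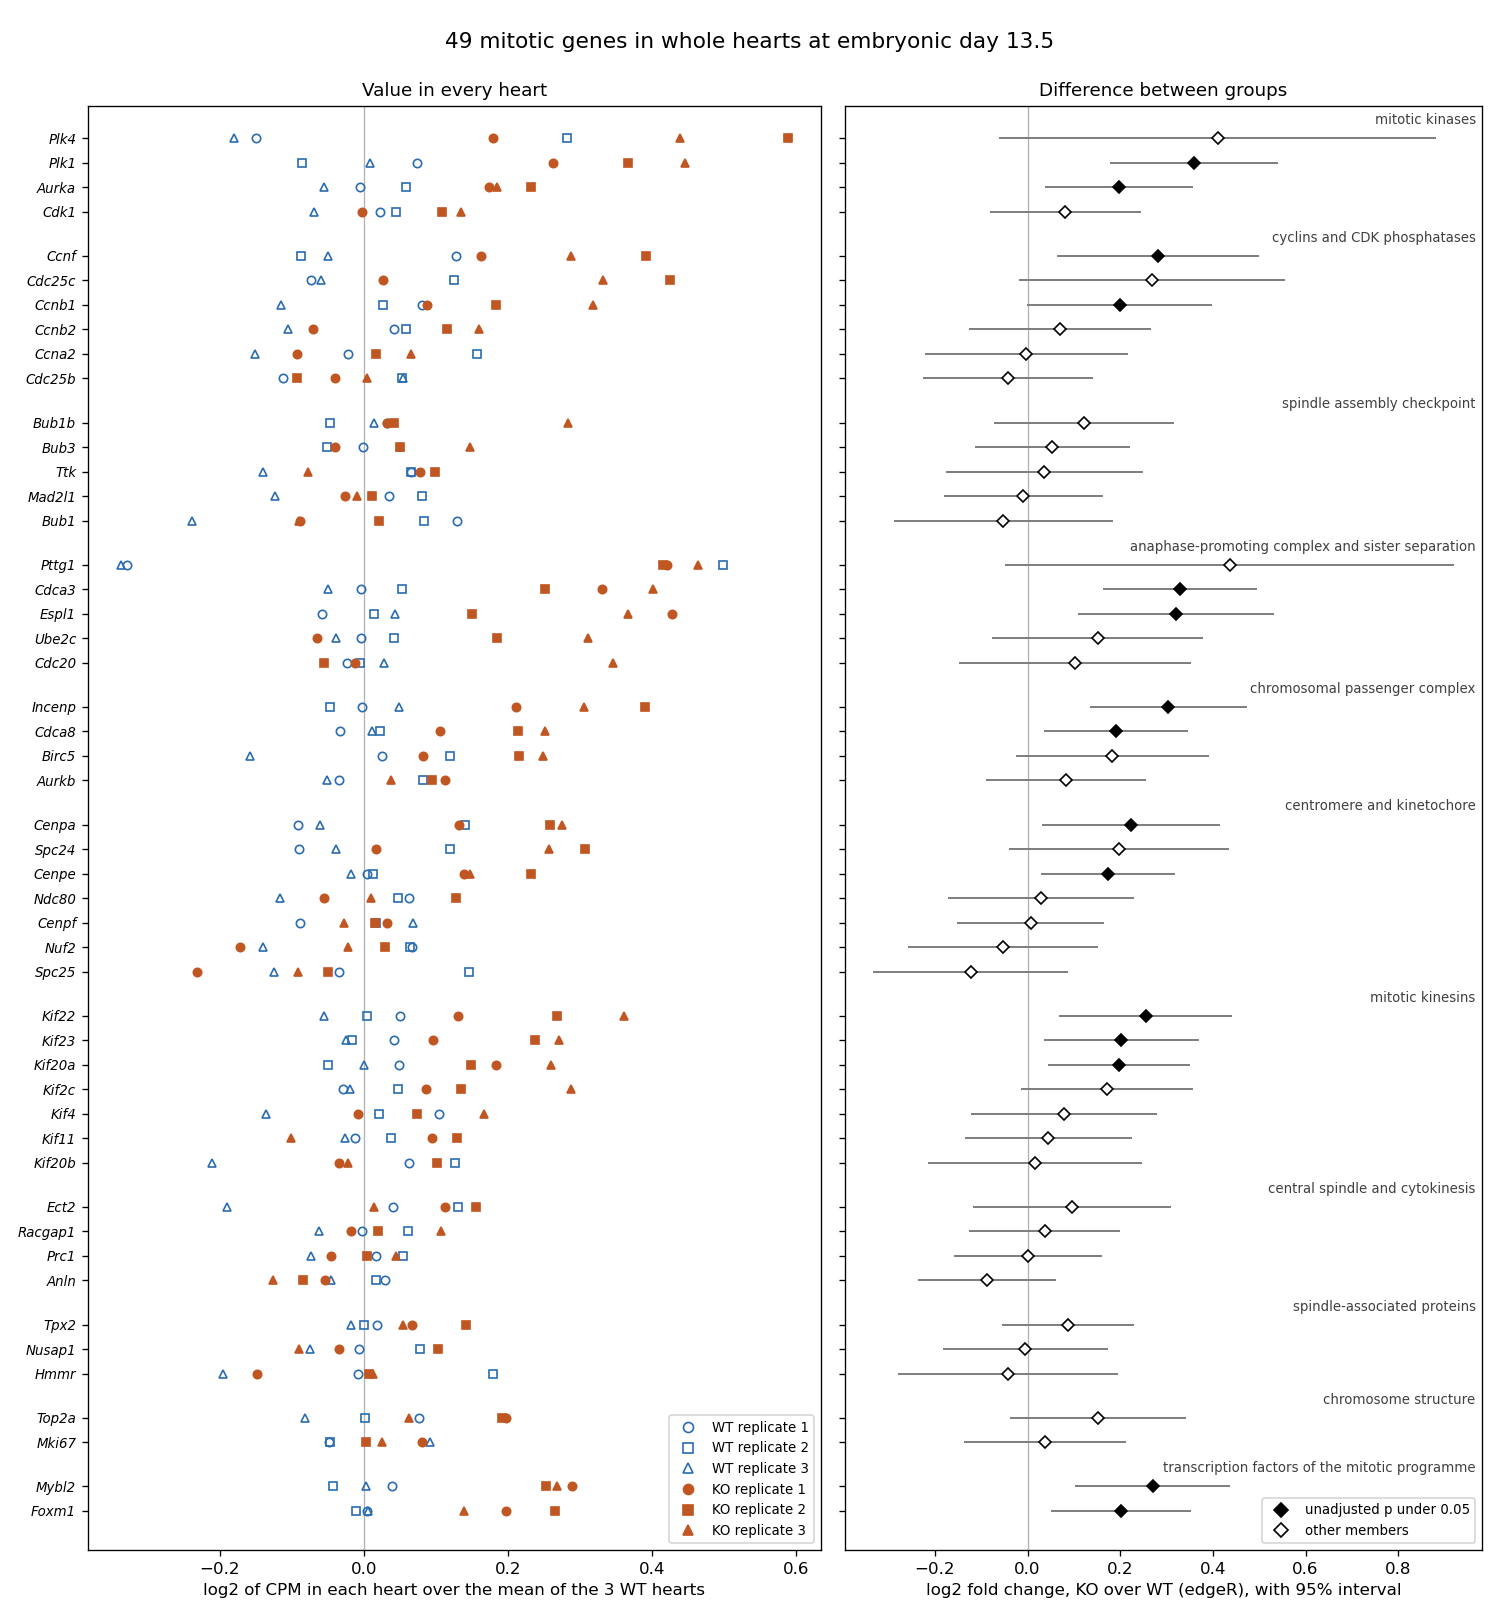
Left, log2 of CPM in each heart over the mean of the 3 WT hearts for the 49 genes, grouped by role (open symbols WT, filled symbols KO, shape by replicate number). Right, log2 fold change with its 95% interval from edgeR, filled where the unadjusted p was under 0.05: 15 members, all above 0.

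Among the mitotic kinases, Plk1, which acts at centrosomes, kinetochores and the midbody (chromosome 7 of GRCm38, 122159439 to 122169873), showed the clearest difference. It stood at 57.5, 51.4 and 54.9 CPM in WT replicates 1 to 3 and at 65.5, 70.4 and 74.4 CPM in KO replicates 1 to 3. Every KO heart was above every WT heart. The log2 fold change of 0.36 had an interval from 0.18 to 0.54 (adjusted p = 0.091 with edgeR and 0.0093 with DESeq2). Aurka, the spindle pole Aurora kinase, was at 47.0 ± 1.87 CPM in WT and 53.9 ± 1.16 CPM in KO hearts (SD, n = 3 each), without overlap and with a log2 fold change of 0.20. Cdk1, the kinase that starts mitosis, was at 127, 129 and 119 CPM in WT and 125, 135 and 138 CPM in KO hearts. Its groups overlapped, and the 95% interval of its log2 fold change of 0.08 ran from -0.08 to 0.24. Plk4, which licenses centriole duplication, was the weakest member at 2.80 ± 0.525 CPM in WT and 3.72 ± 0.523 CPM in KO hearts (SD, n = 3 each), and its log2 fold change of 0.41 had a wide interval, from -0.06 to 0.88.

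The cyclins and their phosphatases split. Ccnf, the F-box cyclin that targets proteins for degradation, was at 37.1, 31.9 and 32.8 CPM in WT and 38.0, 44.5 and 41.4 CPM in KO hearts, a log2 fold change of 0.28 with an interval from 0.07 to 0.50 (adjusted p = 0.17 with edgeR). Its KO hearts all lay above its WT hearts, though KO replicate 1 exceeded WT replicate 1 by little. Ccnb1, the main partner of Cdk1, was likewise without overlap at 132 ± 9.13 and 152 ± 12.3 CPM (SD, n = 3 each) and a fold change of 0.20 on the log2 scale. Its gap was narrow, with WT replicate 1 at 139.7 CPM and KO replicate 1 at 140.3 CPM. The interval ran from 0.0007 to 0.40 (adjusted p = 0.26 with edgeR). Ccna2, the cyclin of S phase and early mitosis, was at 191, 216 and 175 CPM in WT and 182, 196 and 203 CPM in KO hearts, with equal means of 194 CPM. The interval of its log2 fold change ran from -0.22 to 0.22. Cdc25b, a phosphatase that activates Cdk1, was at 37.1, 41.7 and 41.7 CPM in WT and 39.1, 37.7 and 40.3 CPM in KO hearts, the KO values all within the WT range. Ccnb2 and Cdc25c had log2 fold changes of 0.07 and 0.27, and both overlapped.

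The 5 spindle assembly checkpoint genes had a median log2 fold change of 0.04, and 0 of them had an unadjusted p under 0.05. Of all tested genes, 9.48% were higher and 9.98% lower at that threshold. Bub1, a checkpoint kinase at kinetochores, was at 85.8, 83.1 and 66.5 CPM in WT and 73.7, 79.6 and 73.7 CPM in KO hearts, all 3 KO values inside the WT range. Mad2l1, which binds and restrains Cdc20, was at 65.9, 68.1 and 59.1 CPM in WT and 63.2, 64.8 and 63.9 CPM in KO hearts, also inside. The intervals of their log2 fold changes ran from -0.29 to 0.18 and from -0.18 to 0.16. Bub1b, the BubR1 subunit of the mitotic checkpoint complex, was at 107, 101 and 106 CPM in WT and 107, 108 and 127 CPM in KO hearts. It counted as without overlap, though KO replicate 1 at 106.92 CPM was level with WT replicate 1 at 106.9 CPM. KO replicate 3 stood apart from the other KO hearts. The log2 fold change of Bub1b was 0.12 (standard error 0.08). Without KO replicate 3 it was 0.04. Bub3 and the checkpoint kinase Ttk were at 0.05 and 0.04.

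The genes of the anaphase-promoting complex and sister separation, with Cdca3 placed beside them, had a median log2 fold change of 0.32. Cdca3, an F-box-like adaptor that promotes entry into mitosis (chromosome 6, 124829547 to 124833701), was at 49.5, 51.5 and 47.9 CPM in WT and 62.4, 59.1 and 65.6 CPM in KO hearts. The KO hearts all lay above the WT hearts by more than the spread of either group, at a log2 fold change of 0.33 with an interval from 0.16 to 0.49 (adjusted p = 0.091 with edgeR and 0.013 with DESeq2). Espl1, separase, the protease that cuts cohesin (chromosome 15, 102296266 to 102324357), was at 33.8, 35.5 and 36.2 CPM in WT and 47.3, 39.0 and 45.3 CPM in KO hearts, again without overlap, with a log2 fold change of 0.32 (adjusted p = 0.14 with edgeR and 0.064 with DESeq2). Cdc20, the activator of the anaphase-promoting complex, was at 73.0, 73.9 and 75.7 CPM in WT and 73.6, 71.4 and 94.3 CPM in KO hearts. KO replicate 3 alone lay above the WT range, and without it the log2 fold change of 0.10 became -0.03. Ube2c, the ubiquitin-conjugating enzyme of the same complex, was at 121 ± 3.36 and 134 ± 17.4 CPM (SD, n = 3 each), with KO replicate 1 below all WT hearts.

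Pttg1, securin, which holds separase inactive, had the largest log2 fold change of the 49 genes, 0.44, and the widest interval, from -0.05 to 0.92. It was at 20.2, 35.9 and 20.1 CPM in WT and 34.0, 33.9 and 35.1 CPM in KO hearts. WT replicate 2 was thus above all 3 KO hearts, while the other two WT hearts were close to each other and well below, so that the difference depended on which WT hearts were counted. Pttg1 was singled out after its values were seen.

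**Figure D3:**
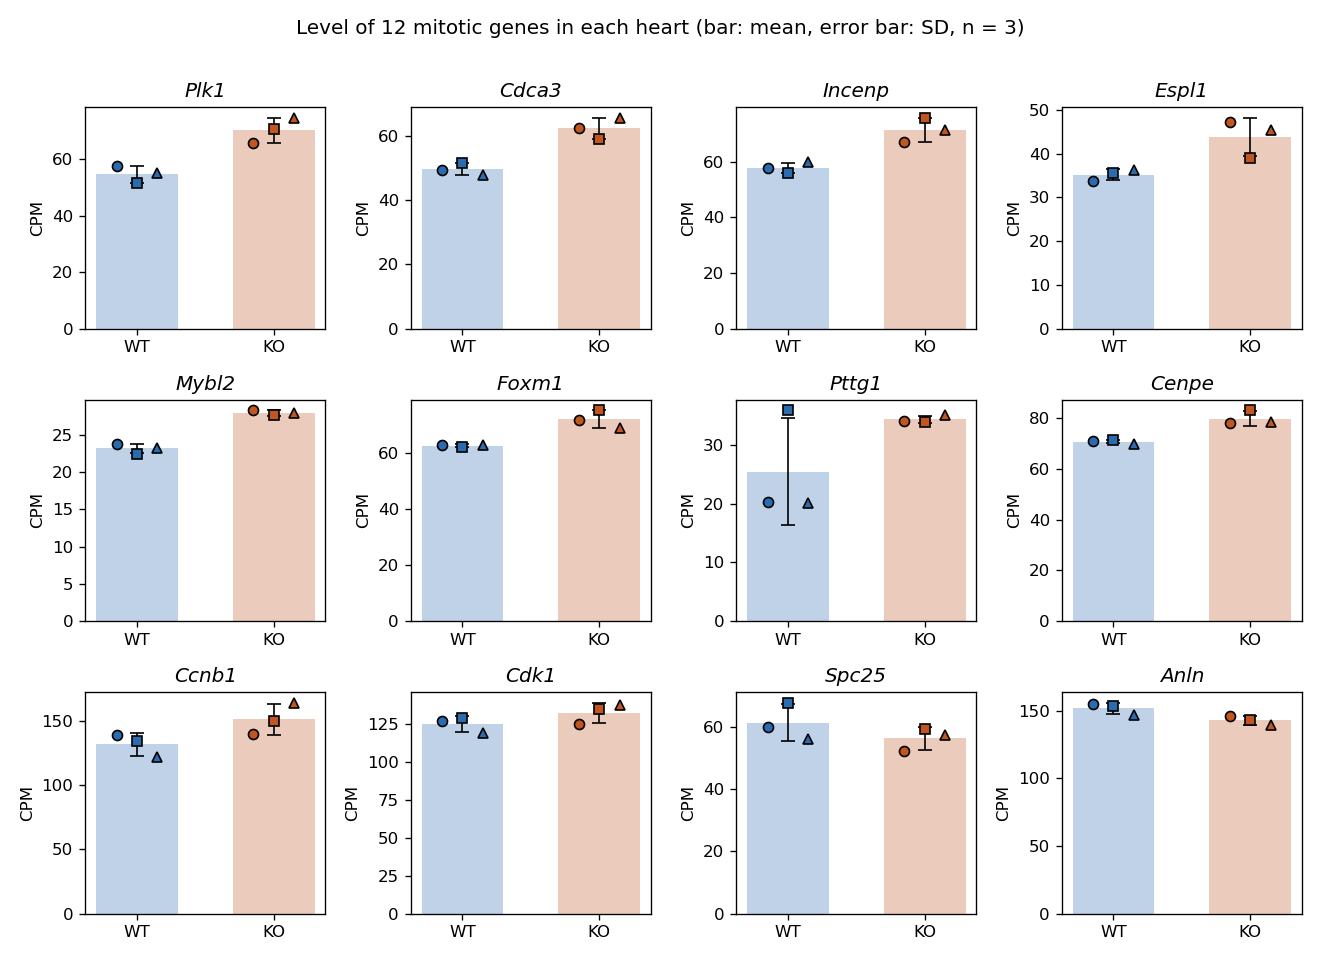
CPM in each heart for 12 members (circle, square and triangle for replicates 1 to 3, bars for the mean, error bars for the SD, n = 3 per group, axes from 0). Plk1, Cdca3, Incenp, Espl1, Mybl2, Foxm1, Cenpe and, by a narrow gap, Ccnb1 show no overlap with KO above WT. Anln shows no overlap with KO below WT, and Pttg1 a WT replicate 2 level with the KO hearts.

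The 4 subunits of the chromosomal passenger complex, which corrects faulty attachments and guides cytokinesis, were all above 0, with unequal fold changes. Of all tested genes, 49.7% lay above 0. Incenp, the scaffold (chromosome 19, 9872296 to 9899551), was at 57.7, 56.0 and 59.8 CPM in WT and 67.0, 75.8 and 71.5 CPM in KO hearts. It did not overlap, with a log2 fold change of 0.30 with an interval from 0.14 to 0.47 (adjusted p = 0.10 with edgeR and 0.029 with DESeq2). Cdca8, borealin, was at 71.8 ± 1.46 and 82.0 ± 4.25 CPM (SD, n = 3 each), also without overlap, with a log2 fold change of 0.19. Birc5, survivin, was at a log2 fold change of 0.18 with overlap. Aurkb, the catalytic subunit, was at 37.1, 40.3 and 36.7 CPM in WT and 41.2, 40.6 and 39.1 CPM in KO hearts, a log2 fold change of 0.08 with an interval from -0.09 to 0.25. WT replicate 2 lay above KO replicate 3.

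At the kinetochore, the 4 genes of the NDC80 complex, which grips microtubules, had a median log2 fold change of -0.01. Spc25 was at 59.8, 67.8 and 56.2 CPM in WT and 52.2, 59.2 and 57.5 CPM in KO hearts, the lowest fold change of the list at -0.12 (standard error 0.09, interval -0.33 to 0.09). Nuf2 was at 60.6, 60.5 and 52.5 CPM in WT and 51.4, 59.1 and 57.0 CPM in KO hearts, at -0.05. Both overlapped. Their partners Ndc80 and Spc24 were at 0.03 and 0.20. Cenpe, the kinesin that moves chromosomes to the spindle equator, was at 70.9, 71.3 and 69.8 CPM in WT and 77.8, 83.1 and 78.3 CPM in KO hearts, without overlap, at a log2 fold change of 0.17 with an interval from 0.03 to 0.32 (adjusted p = 0.19 with edgeR). Cenpa, the histone H3 variant that marks centromeres, was at 0.22, with KO replicate 1 just below WT replicate 2. Cenpf, a large kinetochore protein, was at 125, 135 and 139.6 CPM in WT and 136, 135 and 131 CPM in KO hearts, with a log2 fold change of 0.01 and an interval from -0.15 to 0.16.

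Apart from Cenpe, the 7 kinesins on the list were all above 0, where 49.7% of all tested genes were. Their median log2 fold change was 0.17, and 4 did not overlap (57.1%, against 14.3% of all tested genes). Kif22, a motor that binds chromosome arms, was at 52.0, 50.4 and 48.4 CPM in WT and 55.0, 60.5 and 64.5 CPM in KO hearts, at a log2 fold change of 0.25 with an interval from 0.07 to 0.44 (adjusted p = 0.16 with edgeR). Kif20a and Kif23, motors of the central spindle, were both at 0.20 and did not overlap. Kif2c, which takes microtubules apart at centromeres, was at 0.17 without overlap, with an interval from -0.01 to 0.36. Kif20b was at 54.5, 57.0 and 45.1 CPM in WT and 50.9, 55.9 and 51.3 CPM in KO hearts, all KO values inside the WT range, at a log2 fold change of 0.02. Kif4, the chromokinesin, and Kif11, the motor that separates spindle poles, were at 0.08 and 0.04.

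The central spindle and cytokinesis genes other than kinesins had a median log2 fold change of 0.02. Anln, anillin, the scaffold of the contractile ring (chromosome 9, 22332012 to 22389188), was at 155, 154 and 147 CPM in WT and 146, 143 and 139 CPM in KO hearts. It was the single member with all KO hearts below all WT hearts, by a small margin, at a log2 fold change of -0.09 with an interval from -0.23 to 0.06 (adjusted p = 0.46 with edgeR). Prc1, which bundles antiparallel microtubules, was at 156, 160.2 and 147 CPM in WT and 149, 155 and 159 CPM in KO hearts, with equal means of 154 CPM. Racgap1 and Ect2, which switch on RhoA at the cell equator, were at 0.04 and 0.10 with overlap.

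Of the spindle-associated proteins, Tpx2, the activator of Aurora A, was at 103, 101 and 100.2 CPM in WT and 106, 112 and 105 CPM in KO hearts, without overlap but at a log2 fold change of 0.09 (interval -0.05 to 0.23). Hmmr was at 107, 122 and 93.8 CPM in WT and 96.9, 108 and 108 CPM in KO hearts, and Nusap1 was at 80.9, 85.7 and 77.1 CPM in WT and 79.3, 87.3 and 76.3 CPM in KO hearts. The groups of both overlapped broadly. The 2 most abundant transcripts before correction for length, Top2a and Mki67, belong to chromosome structure. Top2a, topoisomerase II alpha, was at 367, 348 and 329 CPM in WT and 399, 397 and 363 CPM in KO hearts, where WT replicate 1 lay above KO replicate 3, at a log2 fold change of 0.15 with an interval from -0.04 to 0.34 (adjusted p = 0.33 with edgeR). Mki67, the Ki-67 proliferation marker, was at 244, 244 and 269 CPM in WT and 267, 253 and 257 CPM in KO hearts, at a log2 fold change of 0.04 with an interval from -0.14 to 0.21.

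Both transcription factors of the programme were higher in every KO heart than in every WT heart, as were 14.3% of all tested genes. Mybl2, B-Myb, was at 23.8, 22.5 and 23.2 CPM in WT and 28.3, 27.6 and 27.9 CPM in KO hearts, with narrow groups and a gap between them, at a log2 fold change of 0.27 with an interval from 0.10 to 0.44 (adjusted p = 0.13 with edgeR and 0.085 with DESeq2). Foxm1 was at 63.0, 62.3 and 63.1 CPM in WT and 72.0, 75.5 and 69.1 CPM in KO hearts, at 0.20 (standard error 0.06; adjusted p = 0.16 with both tools). The promoter window of Mybl2 held none of the CHR, CCAAT or E2F letters searched, and Foxm1 had no window. Of the 12 genes of the MuvB core, its pocket proteins, their E2F and DP partners and Mybl1, 4 were above 0 and 8 below, with a median log2 fold change of -0.04. Rbl2, the pocket protein p130, was at 45.6, 47.5 and 45.5 CPM in WT and 36.5, 40.9 and 40.5 CPM in KO hearts, a log2 fold change of -0.23 without overlap. E2f4, its E2F partner, was at 32.4, 33.8 and 37.7 CPM in WT and 43.1, 40.3 and 39.7 CPM in KO hearts, at 0.24 without overlap. These were the genes of that list with an unadjusted p under 0.05, 1 of 12 (8.33%) each way, close to the 9.48% and 9.98% of all tested genes, and neither passed an adjusted p of 0.05 with edgeR (0.17 and 0.19) or DESeq2.

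Other genes of mitosis, none of them among the 49, were also more often above 0 than below. The lists of other mitotic and S phase genes, like the 49, were chosen with earlier results of these data known. Of 92 such genes, 91 were tested. Among these, 68 were above 0 (74.7%, against 49.7% of all tested genes) and 23 below, with a median log2 fold change of 0.09. At an unadjusted p under 0.05, 18 were higher (19.8%, against 9.48% of all tested genes) and none was lower, and neither edgeR nor DESeq2 called any at an adjusted p of 0.05. The 3 with the smallest p were Cenpt, a subunit of the inner kinetochore, Tacc3, which stabilises kinetochore fibres, and Cdc25a, a phosphatase that activates CDKs, at log2 fold changes of 0.32, 0.24 and 0.25, each without overlap. In the 50 S phase genes, 46 were above 0 (92%, against 49.7% of all tested genes), and the median was 0.15. DESeq2 called 9 of them higher and 0 lower at an adjusted p of 0.05. Of all genes with an adjusted p, it called 2.73% higher and 3.5% lower. Lig1, Pole and Mcm2 had the smallest p there, at 0.37, 0.36 and 0.32. Whether the mitotic and S phase medians differ was not tested.

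**Figure D4:**
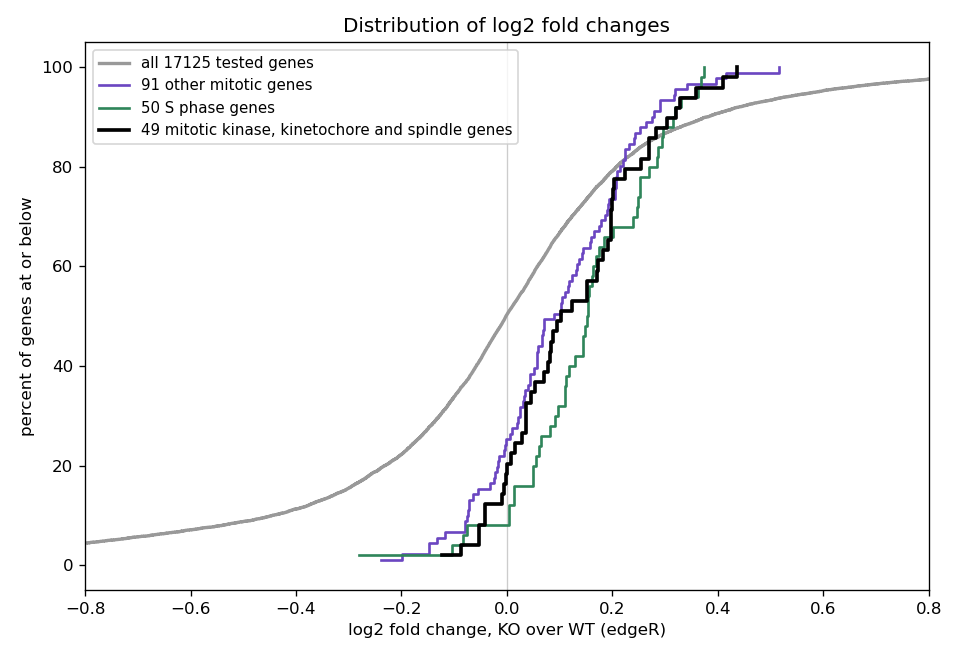
Cumulative percent of genes by log2 fold change (edgeR, KO over WT) for the 49 mitotic genes, 91 other mitotic genes, 50 S phase genes and all 17125 tested genes, shown from -0.8 to 0.8. The curves of the 3 cell cycle lists lie to the right of all genes over most of their height and cross it near the top, with medians of 0.10, 0.09 and 0.15 against -0.0017.

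Some hearts were low or high for many of the 49 genes together. Summed over members, the level was 4082, 4174 and 3901 CPM in WT replicates 1 to 3 and 4205, 4393 and 4411 CPM in KO replicates 1 to 3, so the lowest KO heart stood just above the highest WT heart. WT replicate 3 was the lowest WT heart for 31 of the 49 members, where it was the lowest for 32.7% of all tested genes. KO replicate 1 was the lowest KO heart for 30 members, against 37.2% of all tested genes. The highest of all 6 hearts was KO replicate 3 for 18 members, KO replicate 2 for 14 and WT replicate 2 for 7. Members share their library and its scaling, so these counts are not independent.

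Compared per kilobase of exon, the most abundant members in WT hearts were Ccnb2, Ccna2 and Ube2c, at 48.8, 47.5 and 46.4 CPM per kb, whose WT hearts overlapped from each to the next. Cdc20 at 39.7 and Top2a at 38.6 CPM per kb followed, overlapping with each other but not with Ube2c. Plk1 stood at 24.8 CPM per kb in WT and at 31.9 CPM per kb in KO hearts, in a run of neighbours (Cdk1, Mki67, Plk1 and Bub1b) whose WT hearts overlapped from each to the next. Mybl2, Ccnf, Espl1 and Cdc25c lay, in that order, from 4.996 down to 3.05 CPM per kb, with overlap between Ccnf and Espl1, and Plk4 came last at 0.41 CPM per kb. Exon lengths were those of GENCODE vM21, while the reads were counted with vM6. Each length merged all annotated exons of a gene and was not that of the transcript expressed, as with 5860 bases for Cenpa. The level of a gene that uses few of its annotated exons is thus understated. The order above holds for this measure alone and was not checked with transcript lengths.

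Exons of 15 members overlap those of another gene, and it is not stated whether strand was used in counting, so their values are less certain. Of Kif20a exons, 29.3% overlap Cdc23 on the other strand, which was expressed at 87.0 CPM in WT and 89.4 CPM in KO hearts. Of Prc1 exons, 11.1% overlap Rccd1, at 5.76 and 8.61 CPM. Plk1 overlaps, over 7.09% of its exons, an antisense gene model with no tested row. Incenp, Cdca3, Espl1 and Mybl2 overlapped none. Pseudogenes named after Ccnb1, Ccnb2, Kif22 and Kif4 could share reads with them.

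Markers of other cell types were measured beside these genes. Over all tested genes 49.7% lay above 0, and DESeq2 called 2.73% of all genes with an adjusted p higher and 3.5% lower. The 15 cardiomyocyte markers summed to between 30992 and 37651 CPM in WT and between 30554 and 32800 CPM in KO hearts, with 4 genes above 0 and 11 below. With DESeq2, 3 of them, Myl7, Myh6 and Myl4, rose (log2 fold changes of 0.69, 0.48 and 0.30) and 1, Pln, fell (-0.54), each without overlap between groups. The 12 pan-endothelial markers ranged from 1065 to 1362 CPM in WT and from 1211 to 1255 CPM in KO hearts, with 5 above 0 and 7 below, and DESeq2 called 1, Esam, at -0.33. Of the 13 erythroid markers with a row, 4 were above 0 and 9 below. They summed to between 9439 and 39562 CPM in WT and between 6605 and 11606 CPM in KO hearts. The highest sum was in WT replicate 3, the WT heart most often lowest for the mitotic genes. The lowest sum was in KO replicate 1, the KO heart most often lowest for those genes, so the groups ran opposite ways. A link between erythroid and mitotic levels was not tested. Within that list Hbb-y, an embryonic globin gene, was higher in KO hearts while Hbb-bs, an adult one, was lower: Hbb-y was at 454, 42.6 and 155 CPM in WT and 802, 1201 and 1127 CPM in KO hearts, and Hbb-bs at 2586, 5477 and 11913 CPM in WT and 1441, 1543 and 2571 CPM in KO hearts. Of the transcription factors on the list, Klf1 was between 0.21 and 0.44 CPM and Gata1 between 0.12 and 0.58 CPM, while Tal1 was higher in every KO heart, at 15.6, 10.49 and 13.1 CPM in WT and 16.5, 16.8 and 16.5 CPM in KO hearts. DESeq2 called 1 gene of the list, Hba-x, an embryonic globin gene, higher (log2 fold change of 2.03). With the erythroid and cardiomyocyte markers left out before scaling, the median log2 fold change of the 49 genes was 0.10, and without WT replicate 3 it was 0.11. Leaving the markers out alters the scaling and not the mix of cells in a heart, so it cannot show what that mix contributes. The summed levels of the epicardial list (8 genes, 5 above 0) ran from 187 to 204 CPM in WT and from 215 to 246 CPM in KO hearts. Those of the endocardial list (7 genes, 7 above 0) ran from 362 to 678 CPM in WT, lowest in WT replicate 2, and from 670.3 to 714 CPM in KO hearts. In the same order of groups, those of the mesenchymal list (10 genes, 4 above 0) ran from 2799 to 3970.4 and from 2575 to 3433 CPM, of the smooth muscle list (6 genes, 2 above 0) from 1304 to 1551 and from 1212 to 1428 CPM, and of the macrophage and leukocyte list (9 genes, 4 above 0) from 61.0 to 82.2 and from 73.4 to 78.5 CPM. These sums hide single genes that moved. In the smooth muscle list, where Acta2 makes up most of the sum, Rgs5 was at 44.2, 99.95 and 101 CPM in WT and 12.8, 11.05 and 16.1 CPM in KO hearts, and with DESeq2 Rgs5, Myh11 and Actg2 fell (log2 fold changes of -2.62, -2.40 and -1.93) and Cnn1 rose (0.48). In the mesenchymal list Postn, Dcn and Lum fell with DESeq2 (-0.43, -0.46 and -0.42), and in the epicardial list Upk3b and Krt19 rose (0.57 and 0.68). None of these markers passed an adjusted p of 0.05 with edgeR, and their part in the mitotic result was not tested. Lists of liver, of lung and foregut and of neural crest and neuronal genes summed to at most 2.78, 0.49 and 10.7 CPM in any heart.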

How the data were processed

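Per the labels and the study's methods, RNA of whole hearts was sequenced as 76 bp paired-end reads, mapped by the authors to GRCm38 with STAR 2.4.2a and GENCODE vM6 and counted per gene with summarizeOverlaps. The raw counts were deposited without normalization, between 28948836 and 89675692 per heart. A second deposited table of the authors' DESeq2 comparison (mean, fold change, error and p-values) was used here for its gene symbols alone.

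The tests ran under R 4.3.3, with edgeR 4.0.16 as the main tool (filterByExpr with a minimum count of 10 and a minimum total of 15, TMM scaling, quasi-likelihood test with condition as the only term, Benjamini-Hochberg adjustment over 17125 genes). The code was first tested on simulated counts. Standard errors are the log2 fold change divided by the square root of F. Alternatives used DESeq2 1.42.0, limma 3.58.1 (voom), other scalings, filters and thresholds, thinning, a replicate block and each heart left out. The members, roles and lists were chosen with earlier results of these data known. Per-heart values were to be given for members called by edgeR or DESeq2, for the smallest and largest p in each role and for negative fold changes, which names 27 genes; Aurka, Plk4, Ccnb1, Espl1, Ube2c, Cdca8 and Pttg1 were added after their values were seen, as were the marker genes given by name. The series calls the 3 hearts of a group biological replicates, and each pair of libraries differed beyond counting noise (the smallest chi-square was 19.0 per degree of freedom).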

Additional observations from a re-analysis of the deposited data

How the results depend on the processing

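Of the 405 fold changes of 27 named members recomputed under the alternatives, 370 kept their direction and their side of the threshold. Another 5 passed it and 30 changed sign, all of the last in genes with a log2 fold change of 0.103 or less in size. The 0 calls of edgeR among the 49 genes became 3 with DESeq2, 2 at an adjusted p under 0.10 (Plk1 and Cdca3), 1 with all genes with at least 1 count (Plk1) and 0 to 1 in fits that left out 1 heart, where Plk1 passed without WT replicate 1 (adjusted p = 0.047 from edgeR); for the other mitotic genes the range without 1 heart was 0 to 1. The median log2 fold change of the 49 genes ran from 0.11 to 0.14 in fits without 1 heart. Sign changes with all genes with at least 1 count were Ccna2 at 0.0056 and Nusap1 at 0.0042; with limma-voom Ccna2 at 0.0031; after thinning Cdc25b at 0.0036, Cenpf at -0.0078 and Prc1 at -0.0077; Prc1 also at -0.0038 with RLE size factors, at -0.0023 with DESeq2 and at -0.00045 with erythroid and cardiomyocyte markers left out, a setting chosen after seeing the data. In fits without 1 heart, the log2 fold changes that changed sign ran from -0.073 to 0.084 for Ccna2, -0.16 to 0.018 for Bub1, -0.066 to 0.034 for Mad2l1, -0.029 to 0.18 for Cdc20, -0.12 to 0.0045 for Nuf2, -0.035 to 0.042 for Cenpf, -0.079 to 0.084 for Kif20b, -0.034 to 0.030 for Prc1, -0.13 to 0.058 for Hmmr and -0.062 to 0.040 for Nusap1. The cause was not tested. WT and KO hearts share replicate numbers, and deviations of same-numbered hearts from their group means had correlations of 0.0093, -0.12 and -0.094 over 17125 genes. Pairs with unlike numbers ran from -0.033 to 0.13. Deviations within a group are tied to one another, so these correlations cannot show which hearts shared a litter or batch. The study's methods state that controls were litter mates, the labels give no litter, and pairing by litter was not tested. With the replicate number as a block, edgeR called 0 members, 17 were higher at an unadjusted p under 0.05 against 15, and Ccna2 changed sign, at 0.0013. Depth was at least 80 reads per member and heart.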

Other observations

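CCAAT boxes in the member promoters were often set at a similar distance, which was noticed after the sequences had been read. Of the 21 members with at least 2 CCAAT boxes in the window, 9 (Aurka, Ccnb1, Ccnb2, Cdca3, Cdca8, Cdk1, Hmmr, Spc25 and Ube2c) had a pair whose first bases lay 31 to 35 bases apart, or 42.9%. The same spacing occurred in 414 of the 3585 genes with at least 2 boxes in the whole table, or 11.5%, in 5 of 26 other mitotic genes (19.2%) and in 2 of 13 S phase genes (15.4%). Genes with this spacing stood at both ends of the fold changes, from Cdca3 at a log2 fold change of 0.33 to Spc25 at -0.12. In 5 members with a window, Mybl2, Pttg1, Mad2l1, Nuf2 and Nusap1, none of the CHR letters searched were present, and their log2 fold changes ran from -0.05 for Nuf2 to 0.44 for Pttg1. Of these, 3 (Mad2l1, Nuf2 and Nusap1) had a negative fold change. CHR letters stood in 91.7% of the 12 members with a window that were higher at an unadjusted p under 0.05. They stood in 86.2% of the 29 other members with a window, so the shares were close. Within those 29, they stood in 62.5% of the 8 with a negative fold change. This is a description over few genes, with no test.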
